A study of Mus musculus with 7 samples.

Results

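The endothelin and Hand genes examined here are 7 genes of one signalling pathway in the mesenchyme of the branchial arches and the cardiac outflow tract: the ligand gene Edn1, the processing enzyme gene Ece1, the receptor genes Ednra and Ednrb, and the transcription factor genes Hand1, Hand2 and Gsc. They were listed by name, and every peak inside them or within 100 kb of them was collected, with the distance measured from the peak centre to the gene body. All 7 were found among the 21887 protein-coding genes of the chromosomes in a RefSeq table of the mouse assembly GRCm38.p6, the same assembly as the build mm10 of the peak lists. The peaks come from chromatin immunoprecipitation followed by sequencing (ChIP-seq) of β-catenin, which carries canonical Wnt signals into the nucleus, and of Pygo2, a PHD-finger protein that joins it through Bcl9. Both proteins were precipitated from wild-type mouse embryos 10.5 days post coitum, using about 200 pooled branchial arches. Pre-immune IgG, also precipitated from pooled branchial arches of this stage, served as the control. The libraries used were β-catenin BA2 (13672937 tags, 1079 peaks) and Pygo2 BA2 (15009636 tags, 7150 peaks), each called against the IgG BA1 library. BA1 and BA2 are not defined in the labels, so the control cannot be said to match the BA2 tissue. Each list rests on 1 library, so no count below has a replicate error and none was tested, and p-values are not given. Whole pooled arches contain several cell types, which a peak list does not tell apart, and peak positions say nothing about how much of a gene's RNA was present.

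In the arches, endothelin-1 is secreted by the surface epithelium and the mesodermal core after Ece1 cleaves its precursor. It binds Ednra on cranial neural crest cells, which signals through the G protein α subunits encoded by Gnaq and Gna11. The response includes the homeobox genes Dlx5 and Dlx6 and, further down, Hand2 and Gsc, and gives the lower jaw its identity. Ednrb serves melanocyte and enteric neural crest, mostly with endothelin-3 as ligand. Hand1 and Hand2 are basic helix-loop-helix factors required in the heart and the arches. Gsc is a homeobox factor of the mandible and the ear region.

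Most of these genes had no peak within 100 kb. Of the 7 genes, 2 had any peak within 100 kb, and these were Ece1 and Hand2. The other 5, Edn1, Ednra, Ednrb, Hand1 and Gsc, had no peak of either protein in that window. Of all protein-coding genes, 57.6% had a Pygo2 peak within 100 kb, 17.2% a β-catenin peak and 15.1% peaks of both lists. Together the windows of the 7 genes covered 1.61 Mb and contained 1 β-catenin peak and 4 Pygo2 peaks, none of them overlapping a peak of the other list. That is 0.621 β-catenin peaks per Mb, beside 0.539 for the whole list over the 2000 Mb genome size given in the file headers. For Pygo2 it is 2.48 peaks per Mb, beside 3.58. The header value is a setting of the peak caller rather than the length of the assembly, whereas the windows were measured in assembly coordinates. The densities of windows and whole list therefore have unlike denominators, and their difference was not read as a result.

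The counts were read against all protein-coding genes. A β-catenin peak lay within 100 kb of 1 of the 7 genes (14.3%), and of 17.2% of all protein-coding genes. A Pygo2 peak lay within 100 kb of 2 of the 7 (28.6%), and of 57.6% of all protein-coding genes. With 7 genes, a single gene moves such a share by 14.3 percentage points. The β-catenin share was thus within 1 gene of that of all protein-coding genes. The order of the shares depended on how peaks were assigned. When each peak was given to its nearest protein-coding gene only, the 7 genes kept their shares of 14.3% for β-catenin and 28.6% for Pygo2. Those of all protein-coding genes were then 4.26% and 23.8%, below the shares of the 7. Each of these differences was smaller than the 14.3 percentage points of 1 gene, so neither was read as a result. Peaks of both lists were present in the window of 1 gene, Ece1, and of 15.1% of all protein-coding genes. Overlapping peaks of both lists were present in the window of 0 of the 7 genes and of 6.32% of all protein-coding genes. The genes differ in length, from 2.03 kb for Gsc to 103 kb for Ece1, and the longest of the 7 was the one with the most peaks.

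**Figure D1:**
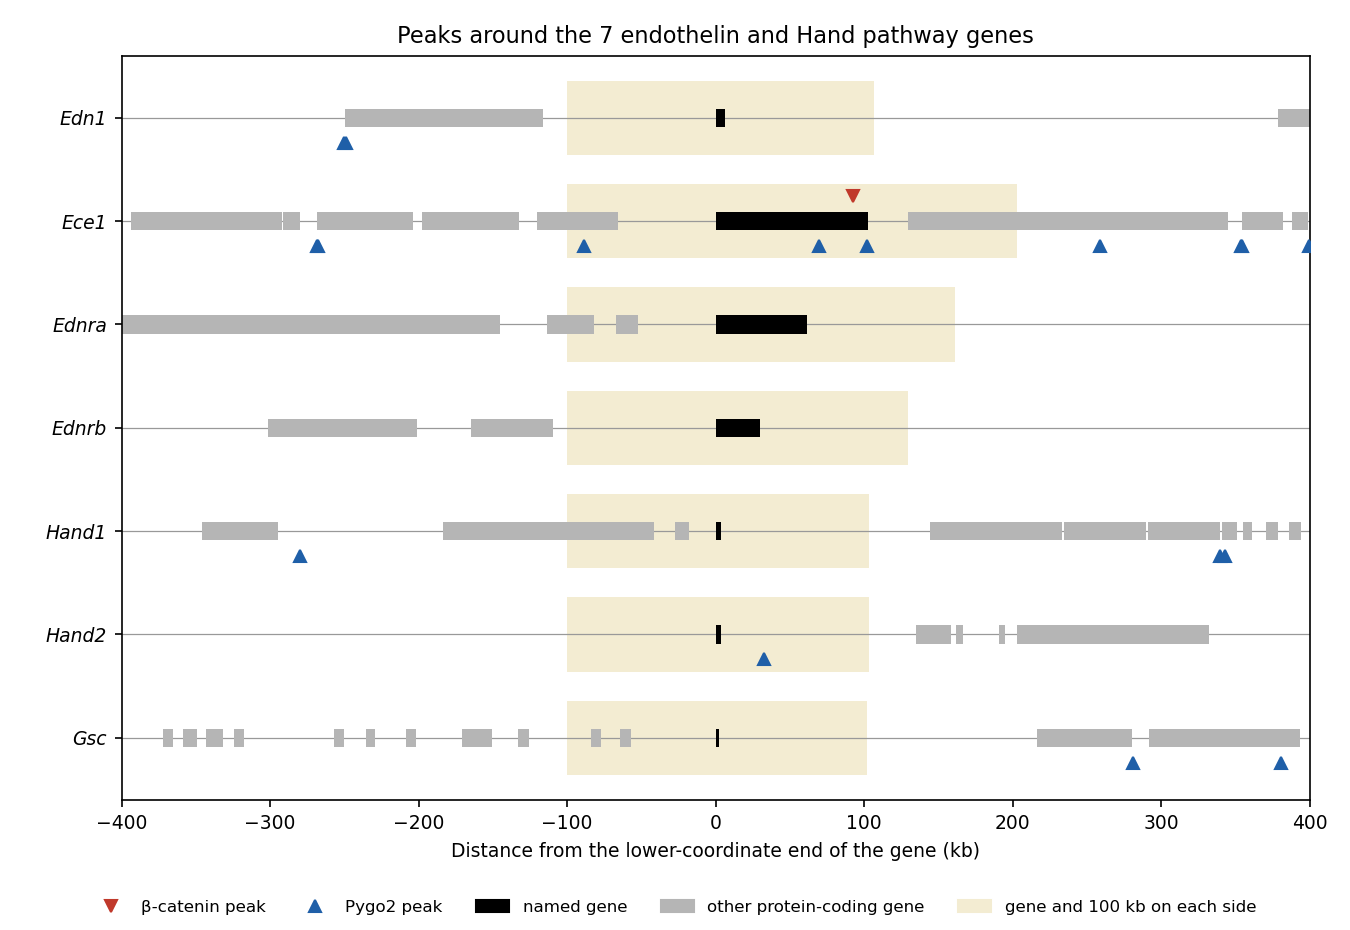
Map of the 7 genes, aligned at the end of each gene with the lower coordinate (x axis, distance in kb along the genome). Red triangles pointing down are β-catenin peaks and blue triangles pointing up are Pygo2 peaks, black bars are the 7 genes, grey bars other protein-coding genes, and shading covers each gene with 100 kb on both sides. Only the shaded stretches of Ece1, with 1 β-catenin and 3 Pygo2 peaks, and of Hand2, with 1 Pygo2 peak, contain triangles.

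The promoters of the 2 genes with peaks are shown because none of their peaks lay in them. Of the 7 genes, 6 matched a table of RefSeq start sites on GRCm38.p6, with 9 start sites in all, 4 of them for Ece1; Hand1 had no entry. None of the 9 windows, from 250 bases before to 50 bases after a start site, contained a peak of either list. Below are the 250 bases before the Ece1 start site that lies nearest to the peaks (chr4:137920543-137920792, plus strand) and those before the Hand2 start site (chr8:57320733-57320982, plus strand), both 5′ to 3′. Capitals mark matches to the TCF/LEF core (CTTTGA or CTTTGT), the motif of the factors that bring β-catenin to DNA, or to the E-box CATCTG, a sequence bound by basic helix-loop-helix factors. Both strands were searched, and the 2 motifs share no letters in these windows.
Ece1: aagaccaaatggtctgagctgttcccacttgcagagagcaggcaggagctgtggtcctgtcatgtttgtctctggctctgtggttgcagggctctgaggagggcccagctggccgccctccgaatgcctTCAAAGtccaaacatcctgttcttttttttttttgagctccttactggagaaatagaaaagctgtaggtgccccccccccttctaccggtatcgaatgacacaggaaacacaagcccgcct
Hand2: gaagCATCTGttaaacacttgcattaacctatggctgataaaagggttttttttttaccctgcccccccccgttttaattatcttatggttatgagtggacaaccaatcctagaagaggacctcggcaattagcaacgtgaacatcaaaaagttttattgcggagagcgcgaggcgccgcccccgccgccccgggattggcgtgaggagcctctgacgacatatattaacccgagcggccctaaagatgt

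The Ece1 match is a TCF/LEF core on the minus strand, 121 bases before the start site. It was the only one in the 9 windows, and 31.2% of 32817 RefSeq promoter windows of the same length contained at least 1. The 9 windows are not separate promoters, because 4 are of Ece1 and those at 137862237 and 137862280 overlap. The difference from the share of all windows was therefore not read as a result. The CATCTG match of Hand2 begins 246 bases before its start site. CATCTG was present in 2 of the 9 windows, those of Hand2 and Gsc, and in 17.2% of all. These matches are positions of letters. The sequences under the peaks were not analysed here.

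Ece1, the enzyme gene, accounted for 4 of the 5 peaks. It spans 137862237 to 137965229 on chromosome 4 and lies on the plus strand, between Alpl, the gene for tissue-nonspecific alkaline phosphatase, 65.9 kb before it and the translation factor gene Eif4g3 26.6 kb after it. Ece1 had 4 start sites in the RefSeq table, at 137862237, 137862280, 137913558 and 137920793. The window around the first of them had a GC content of 69.3% and that around the last one 53.0%, beside a median of 52.7% over all promoter windows.

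The β-catenin peak at Ece1 spanned 137954499 to 137954667, inside the gene. Its centre lay 33.8 kb downstream of the nearest Ece1 start site, 92.3 kb downstream of the first one and 10.6 kb from the nearer end of the gene, which is its 3′ end. It stood at position 140 of 1079 in the deposited list. A β-catenin peak inside the gene body was found for 2.47% of all protein-coding genes and, among the 7, for Ece1 alone.

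The Pygo2 list had 2 peaks inside Ece1. The first, at 137931579 to 137931745, lay 10.9 kb downstream of the nearest Ece1 start site, at position 5013 of 7150 in the list. The other, at 137964260 to 137964426, lay 0.886 kb from the 3′ end of the gene, at position 3635. A Pygo2 peak inside the gene body was found for 15.0% of all protein-coding genes. The β-catenin peak was 9.76 kb from the Pygo2 peak near the 3′ end and 22.9 kb from the other, so the proteins were placed in the same gene at separate positions. A further Pygo2 peak, at 137773750 to 137773916 and position 6805, was 88.4 kb upstream of the first Ece1 start site. It lay inside Alpl, 7.36 kb from an Alpl start site, and so belonged to the Ece1 window by distance alone.

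Hand2 had a single peak, of Pygo2. The gene spans 57320983 to 57324517 on chromosome 8, on the plus strand, and its nearest protein-coding neighbours are far away, with Fbxo8 at 727 kb and Scrg1 at 131 kb. The Pygo2 peak spanned 57353745 to 57353911, which placed it 32.8 kb downstream of the Hand2 start site and 29.3 kb beyond the end of the gene, at position 2721 of the list. Hand2 was the nearest protein-coding gene to it. The peak lay within Hdnr (57332435 to 57354580), a long non-coding RNA gene downstream of Hand2. No peak of either list lay in Hand2os1 (57304261 to 57320859), the long non-coding RNA gene that runs upstream of Hand2 on the opposite strand, or in the Hand2 gene itself. The nearest β-catenin peak on chromosome 8 was 10600 kb away, and 97.9% of all protein-coding genes were nearer to one.

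The ligand and receptor genes had no peak within 100 kb. Edn1 (chromosome 13, 42301476 to 42307990) was 249 kb from its nearest Pygo2 peak, which lay inside the neighbouring gene Hivep1, and 1310 kb from its nearest β-catenin peak. Ednra (chromosome 8, 77663029 to 77724452) was 761 kb from its nearest Pygo2 peak, inside the mineralocorticoid receptor gene Nr3c2, and 1400 kb from its nearest β-catenin peak. Ednrb (chromosome 14, 103814615 to 103844508) was 468 kb from its nearest Pygo2 peak, 0.132 kb from Mycbp2, and 492 kb from its nearest β-catenin peak, for which Pou4f1 was the nearest gene. The peaks nearest to the 3 genes thus all had another protein-coding gene closer to them. Of all protein-coding genes, 72.7% were nearer to a Pygo2 peak than Edn1, 88.4% than Ednra and 82.1% than Ednrb.

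The remaining transcription factor genes also lacked peaks in the window. Hand1 (chromosome 11, 57828713 to 57832147) was 279 kb from its nearest Pygo2 peak, whose nearest gene was Mfap3, and 3100 kb from its nearest β-catenin peak, 0.107 kb from Map2k3. Gsc (chromosome 12, 104471209 to 104473236) was also 279 kb from its nearest Pygo2 peak, which lay 0.294 kb from the microRNA processing gene Dicer1, and 2560 kb from its nearest β-catenin peak. The Hand genes therefore differed from each other, with a Pygo2 peak at 29.3 kb for Hand2 and at 279 kb for Hand1. Over the 7 genes the median distance to the nearest peak was 279 kb for Pygo2 and 1400 kb for β-catenin, beside medians of 62.4 kb and 645 kb over all protein-coding genes. For each protein, 5 of the 7 genes were farther from a peak than the median gene: for Pygo2 all but Ece1 and Hand2, and for β-catenin all but Ece1 and Ednrb.

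**Figure D2:**
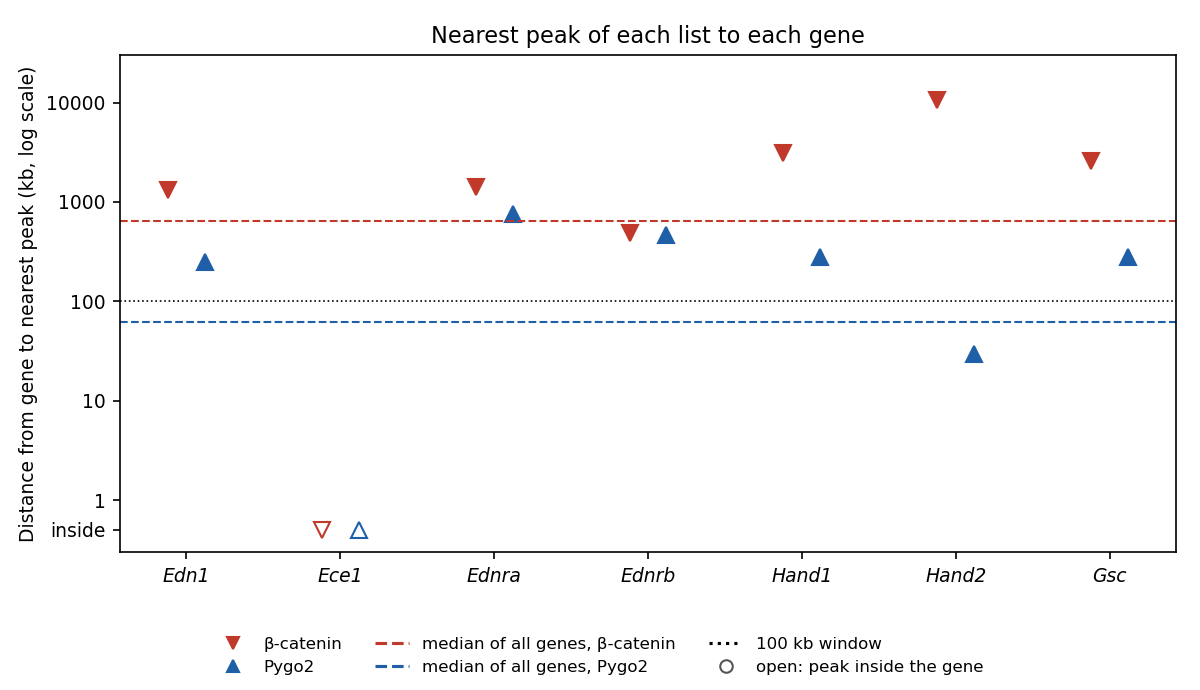
Distance from each of the 7 genes to its nearest β-catenin peak (red) and Pygo2 peak (blue), in kb on a log axis; open symbols on the level labelled "inside" are peaks within the gene. Dashed lines are the medians of all protein-coding genes, 645 kb for β-catenin and 62.4 kb for Pygo2, and the dotted line is the 100 kb window. Ece1 is the only gene below the dotted line for β-catenin, and Ece1 and Hand2 are the only ones for Pygo2.

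The other genes of the pathway were described from 4 lists with 37 genes, none of them among the 7. A Pygo2 peak lay within 100 kb of 30 of the 37 (81.1%, beside 57.6% of all protein-coding genes), and a β-catenin peak within 100 kb of 7 (18.9%, beside 17.2%). A Pygo2 peak lay inside 16 of the 37 genes (43.2%, beside 15.0%). These lists were drawn up with results on some of the same genes known, and neighbours such as Dlx5 and Dlx6, Dlx1 and Dlx2, or Dlx3 and Dlx4 are counted separately although the same peaks lie in reach of both. No test was made of the difference between the 37 genes and the 7.

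Of 10 further genes of the endothelin system (ligands, proteases and the receptor's signalling chain), 8 had a Pygo2 peak within 100 kb and 2 a β-catenin peak. These are 80.0% and 20.0%, beside 57.6% and 17.2% of all protein-coding genes. Among the signalling genes, the distance from a start site to the closest Pygo2 peak was 0.129 kb at the phospholipase C gene Plcb1, 0.178 kb at Gna11, 4.66 kb at Plcb3 and 36.3 kb at Gnaq. Edn3, the ligand gene for Ednrb, had a Pygo2 peak inside it, 22.4 kb from its nearest start site (174782953 to 174783119 on chromosome 2). The 2 genes without a Pygo2 peak in the window were Edn2, at 120 kb, and Mme, which encodes the peptidase neprilysin, at 581 kb. Furin, the gene of the proprotein convertase that makes the first cut in the endothelin precursor, had β-catenin and Pygo2 peaks at 94.6 kb and 48.8 kb, nearer to Prc1 and Unc45a than to Furin. Plcb3, also a phospholipase C gene, had 2 β-catenin and 11 Pygo2 peaks in its window. The nearest Pygo2 peak was inside the gene. The nearest β-catenin peak, at 11.7 kb, was nearer to Gpr137 and Bad than to Plcb3.

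All 10 genes listed as downstream of the receptor in the lower jaw had a Pygo2 peak within 100 kb (beside 57.6% of all protein-coding genes). Whether each of the 10 acts downstream of it was not tested. Only 1, Msx1, had a β-catenin peak (10.0%, beside 17.2%). At Gbx2, a homeobox gene, the nearest Pygo2 peak was 0.055 kb from a start site. Dlx5 and Dlx6, each with 2 Pygo2 peaks in its window, shared their nearest one (6882076 to 6882242 on chromosome 6). It lay 0.091 kb from Dlx5 and 14.2 kb from Dlx6. At Mef2c, a MADS-box factor gene, a Pygo2 peak lay inside the gene, and the closest to a start site was 5.22 kb from it. Msx1, a homeobox gene of the arch mesenchyme, had overlapping peaks of both proteins 71.4 kb (β-catenin, 37895897 to 37896065 on chromosome 5) and 71.3 kb (Pygo2, 37895824 to 37895990) from the gene, with Msx1 as the nearest protein-coding gene.

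Of 7 genes listed as opposed to endothelin signalling in the arch or limited by it, 6 had a Pygo2 peak and 2 a β-catenin peak. These are 85.7% and 28.6%, beside 57.6% and 17.2% of all protein-coding genes. Whether each of the 7 acts in this way was not tested. Jag1, a Notch ligand gene, was among those with both. At Jag1 the β-catenin peak (137116481 to 137116649 on chromosome 2) overlapped the end of the gene, at 137116520. Its centre was 0.045 kb outside the gene and 0.045 kb from a Jag1 start site. A Pygo2 peak was inside the gene. Dlx1 had a Pygo2 peak 0.241 kb from a start site. Pou3f3 was 204 kb from a Pygo2 peak.

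Partners and upstream factors of the Hand proteins had a Pygo2 peak in 6 of 10 cases (60.0%, beside 57.6% of all protein-coding genes). A β-catenin peak was present for 2 (20.0%, beside 17.2%), Tcf3 and Tcf12. Both shares were near those of all genes. Tcf3 and Tcf12 encode E proteins, the partners with which Hand proteins pair. At Tcf12 the window held 3 β-catenin and 6 Pygo2 peaks, among them 1 position where both overlapped. The closest β-catenin peak was 0.044 kb and the closest Pygo2 peak 0.773 kb from a Tcf12 start site. At Tcf3 a Pygo2 peak was 0.215 kb from a start site, while the nearest β-catenin peak, at 9.71 kb, was nearer to Mbd3. The genes without a Pygo2 peak in the window were Twist1, Gata6, Isl1 and Tbx20, at 240 kb, 442 kb, 205 kb and 378 kb.

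**Figure D3:**
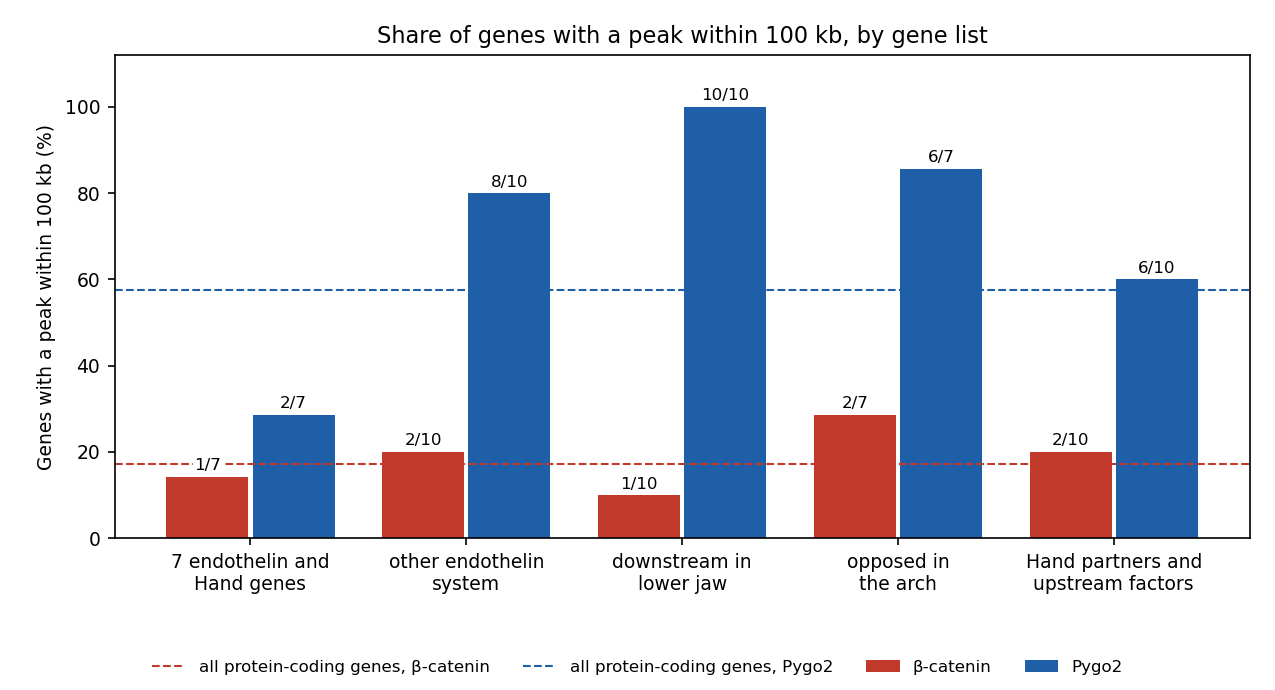
Share of genes (y axis, percent, from 0) with a β-catenin peak (red) or a Pygo2 peak (blue) within 100 kb, for the 7 genes and for 4 lists of further pathway genes; the numbers above the bars are genes with a peak and genes in the list. Dashed lines are the shares of all protein-coding genes, 17.2% and 57.6%. The blue bar of the 7 genes, at 28.6%, lies below its line, and that of the genes listed as downstream in the lower jaw is at 100%.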

How the data were processed

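Peaks were called by the authors with HOMER findPeaks in its factor style, 1 library per list, per the file headers, with IgG BA1 as control. The headers give the minimums: 11 tags for β-catenin and 10 for Pygo2 (false discovery rate 0.001), and a 2-fold excess both over IgG and over the 10000 bp around the peak. Bowtie, Bowtie2, HOMER and mm10 are named in the submitters' processing notes, without versions. The deposited score is 1 for every peak and ranks nothing, so position in the list is given in its place; its sort order is not stated. The mean number of tags per peak was 14.6 and 15.5, so a site with fewer tags than the minimum would be missing from the lists at this depth.

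Gene bodies (RefSeq, GRCm38.p6) were joined to peak centres in Python 3.11.15 with NumPy 2.4.6 and pandas 2.3.3, and plots drawn with Matplotlib 3.10.9. Overlap meant at least 1 bp. The window counts were checked on peaks planted at known distances. Coordinates are 1-based. The gene table gives no exons, so exons, introns and UTRs were not told apart.

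Named were all 7 genes, the further genes with peaks of both lists in the window and the 5 with the closest Pygo2 peak. Because 16 genes had a Pygo2 peak inside them, ties were broken by distance to a start site. Among the 16, Dlx3, Dlx4 and Tbx5 had no start-site entry and could not be ranked. Other names were picked after their values were seen. The values of 1 further gene are not reported here. The 7 genes and the lists were chosen with earlier results of these data known. Marker genes of arch cell types were also looked up. Pygo2 peaks lay within 100 kb of 9 of 11 (beside 57.6% of all protein-coding genes) and β-catenin peaks of 3 of 11 (beside 17.2%). Twist1 and Myf5 had no peak of either list in the window. These counts measure no cell type. The alternatives tried were windows of 50 and 200 kb, start sites, nearest genes only, only the earlier-listed peaks (up to position 539 for β-catenin and 3575 for Pygo2) and other overlap rules.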

Additional observations from a re-analysis of the deposited data

How the results depend on the processing

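The β-catenin count at the 7 genes stayed at 1 peak, inside Ece1, under each of the 5 alternatives, while the share of all genes with a β-catenin peak, computed for 4 of these, ranged from 4.26% with nearest genes only to 26.3% at 200 kb. The count of overlapping peaks stayed at 0 under each of its 4. The Pygo2 count was 3 peaks at 50 kb, 5 at 200 kb, 4 when measured from start sites and 3 with nearest genes only, at 2 genes (28.6%) each time. The share of all genes with a Pygo2 peak was 46.5% at 50 kb and 69.3% at 200 kb, above that of the 7. With nearest genes only it was 23.8%, below that of the 7 by less than 1 gene. With the list kept up to position 3575 the Pygo2 count at the 7 genes fell to 1 peak at 1 gene, Hand2, because the Ece1 peaks stand later, the first of them at position 3635 of 7150. In that part of the list 40.8% of all genes had a Pygo2 peak. With nearest genes only, 4 of the 37 further genes had a β-catenin peak instead of 7. The share of all genes was then 4.26% instead of 17.2%. No paired analysis was possible because each list comes from 1 library and no test between samples was made. For the same reason there was no library to leave out.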

Other observations

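At Twist1, the basic helix-loop-helix partner and antagonist of Hand2 in arch mesenchyme, the nearest peaks of both lists lay next to each other without overlapping. Twist1 spans 33957671 to 33959831 on chromosome 12. The β-catenin peak (34200020 to 34200188) and the Pygo2 peak (34200223 to 34200389) were 240 kb from it, inside Hdac9, the neighbouring histone deacetylase gene. Their centres were 202 bp apart, and 34 bp separated their edges. Because called peaks have a fixed width of 169 bp and 167 bp, such neighbours are not counted as overlapping. Across the β-catenin list, 273 of 1079 peaks (25.3%) overlapped a Pygo2 peak, and a further 166 (15.4%) had a Pygo2 peak centre within 1 kb without overlap. None of the 7 endothelin and Hand genes gained such a pair within 100 kb.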
